A study of Mus musculus with 33 samples.

Results

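Cells that still lacked SSEA1 at day 9 of reprogramming were compared with cells that lacked it at day 12. The comparison holds 6 of the study's 33 RNA-seq libraries, chosen by their labels alone: 3 of the SSEA1- fraction of day 12 and 3 of the SSEA1- fraction of day 9. The study sequenced poly-A RNA of mouse embryonic fibroblasts (MEFs) and of sorted cells on their way to induced pluripotent stem (iPS) cells, in 11 groups of 3 libraries. All 6 libraries carry the strain label 129SV/Jae/C57BL6J and the cell type label "Reprogramming intermediate". Both groups were cultured for reprogramming in ES medium to which dox and AA had been added, were detached with trypsin, stained with antibodies and sorted by FACS, so that only the day differs between their labels. The labels name no transgene, no promoter that drives the factors, no sex and no agent beyond dox and AA, and nothing in them says that replicates of a group came from separate cultures or animals. The p-values below therefore measure spread between libraries, which may be technical. That spread is estimated from all 33 libraries in their 11 groups, not from these 6 alone.

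SSEA1 is a carbohydrate antigen that mouse embryonic stem cells display and fibroblasts lack, and sorting on it divides a reprogramming culture into cells that have gained the antigen and cells that have not. Factor-driven reprogramming first silences fibroblast genes and turns on epithelial ones, and only later switches on the cell's own pluripotency network, in which Nanog, Esrrb, Sall4, Lin28a and the Dppa genes take part. Cells of the SSEA1- fraction are known to reach the pluripotent state rarely, and whether their RNA still changes between these days is what the comparison addresses.

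Levels are given as CPM, read counts of a gene relative to all reads in genes of its library, after TMM scaling, which sets libraries to a common level from the bulk of their genes. "Rose", "fell" and "called" are used where edgeR's quasi-likelihood test, run over 17326 genes, gave a Benjamini-Hochberg adjusted p under 0.05 together with a change of at least 2-fold. Changes are log2 fold changes ± standard error, day 12 over day 9, with n = 3 libraries per group. The 6 libraries held 12.6 to 29.5 M reads in genes. Reads that aligned uniquely outside annotated genes were 10.02 to 11.4% at day 9 and 11.8 to 15.5% at day 12, without overlap, and their part in the results was not tested. Defining fibroblast markers were plentiful in all 6, with a summed level of 5610 to 13065 CPM at day 9 and 3815 to 9406 CPM at day 12, against 102 to 458 and 155 to 250 CPM in the SSEA1+ fraction of the same days. Of 6 macrophage markers the sum was 232 and 324 CPM in replicate 2 of day 9 and of day 12 and 14.1 to 33.8 CPM in the other 4 libraries, so results are also given without replicate 2.

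Between day 9 and day 12 SSEA1- cells gained RNA of 12 genes and lost RNA of none by this test. Those 12 genes were 0.0693% of the genes tested. At an unadjusted p under 0.05 there were 519 higher genes (3% of those tested) and 25 lower genes (0.144%), 544 in all (3.14%). In this model, which holds no replicate block, that is less than the share of 0.05 that such a threshold passes where no gene changes. DESeq2 called 62 higher and 0 lower. The median change of all tested genes was -0.02. The 12 were Otx2, Dppa5a, Trap1a, Lin28a, Fabp3, Myo5b, Cecr2, Rimklb, Chga, Sall4, Dusp9 and Dsg2, with increases of 4.17 to 54.5-fold (median 14.4-fold). In each of them every day 12 library lay above every day 9 library, which held for 5.56% of all tested genes. They were rare transcripts: their mean was 0.0647 to 2.10 CPM at day 9 and 1.27 to 30.4 CPM at day 12. With only these 6 libraries in the model no gene passed, with or without the replicate number as a block. With the block 930 of 15209 tested genes had an unadjusted p under 0.05, a larger share than 0.05, and without it 461. The 33-library model with the block called 17 higher genes, among them all 12. Leaving out 1 library gave 1 (day 9 replicate 1), 1 (day 9 replicate 2), 3 (day 9 replicate 3), 6 (day 12 replicate 1), 1 (day 12 replicate 2) or 9 (day 12 replicate 3) genes called. Of these, in the same order, 1, 1, 2, 5, 1 and 8 were among the 12. Only 1 gene, Otx2, was called when replicate 2 of both days was left out.

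**Figure D1:**
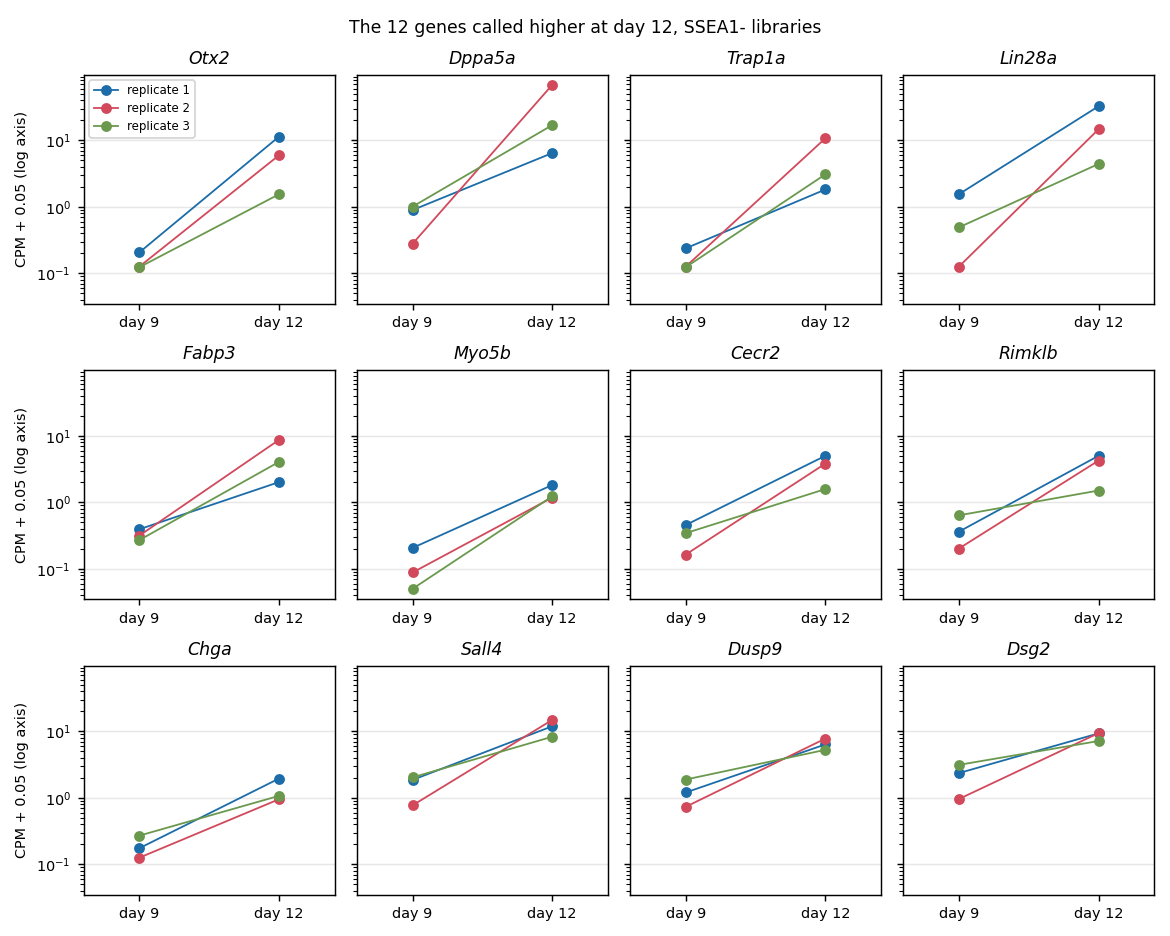
CPM plus 0.05 on a log axis in each SSEA1- library at day 9 and day 12 for the 12 genes called higher. Points are libraries and lines join equal replicate numbers. In every panel the 3 day 12 points lie above the 3 day 9 points, and at day 12 the highest point is replicate 1 in 6 genes and replicate 2 in 6.

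Of the 12 genes, 6 had a promoter in the RefSeq table of build GRCm38.p6 (a later build than the mm9 of the counts), given there as the 250 bases before and 50 bases after the annotated start. The windows of 3 of the genes with the largest increases are shown 5′ to 3′ on the gene's strand. Capitals mark matches, on either strand, to a GC box (GGGCGG) or a CCAAT box (CCAAT). The Otx2 window is the first of 4 entries, at chr14:48667595-48667894 on the minus strand, that of Lin28a is chr4:134018767-134019066 on the minus strand, and that of Trap1a is chrX:139333433-139333732 on the plus strand.
Otx2: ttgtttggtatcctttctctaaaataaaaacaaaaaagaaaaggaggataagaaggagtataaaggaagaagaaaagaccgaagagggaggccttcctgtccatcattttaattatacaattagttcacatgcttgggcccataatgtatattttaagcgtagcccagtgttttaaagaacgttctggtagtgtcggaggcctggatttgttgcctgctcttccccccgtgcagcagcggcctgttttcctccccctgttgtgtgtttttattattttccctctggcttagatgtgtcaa
Lin28a: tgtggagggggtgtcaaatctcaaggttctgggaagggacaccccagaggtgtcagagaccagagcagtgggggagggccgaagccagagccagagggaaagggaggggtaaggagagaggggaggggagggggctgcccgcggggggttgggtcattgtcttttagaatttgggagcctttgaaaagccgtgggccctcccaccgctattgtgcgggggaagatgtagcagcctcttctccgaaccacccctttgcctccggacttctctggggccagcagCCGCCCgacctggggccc
Trap1a: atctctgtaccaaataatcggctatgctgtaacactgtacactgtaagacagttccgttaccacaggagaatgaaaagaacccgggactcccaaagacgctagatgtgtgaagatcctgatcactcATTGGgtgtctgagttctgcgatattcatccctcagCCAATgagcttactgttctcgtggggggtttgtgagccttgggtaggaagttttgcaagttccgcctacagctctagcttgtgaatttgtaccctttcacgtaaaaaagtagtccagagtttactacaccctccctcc
The Trap1a window held 2 CCAAT boxes, at positions -124 and -88 relative to the start, and the Lin28a window 1 GC box at position 32. A CCAAT box occurred in 37.4% and a GC box in 35.7% of the 32851 promoter windows of the table. The octamer core TTTGCAT, present in 4.63% of all windows, matched in 0 of the 6 first windows, and the E2 box CACCTG, in 20.2% of all, matched in 1 (Chga). CpG dinucleotides numbered 6 in this Otx2 window, 10 in Lin28a, 8 in Trap1a, 22 in Fabp3, 21 in Chga and 47 in Rimklb, against a median of 7 over all windows. Such matches describe the letters only.

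Transcription factors and RNA-binding proteins of pluripotent cells made up 4 of the 12. Otx2 (ENSMUSG00000021848), a homeodomain factor of the epiblast and forebrain, stood at 0.156, 0.0759 and 0.0734 CPM in replicates 1 to 3 of day 9, which is 5, 2 and 1 reads. At day 12 it stood at 11.3, 5.90 and 1.49 CPM, or 351, 183 and 38 reads. All 3 libraries moved from near the counting floor of 3 reads to well above it, with replicate 1 highest and replicate 3 lowest. The change was 5.77 ± 0.73 (edgeR, adjusted p = 0.000384), and Otx2 was called in all 6 fits that left out 1 of these libraries, with 4.996 without day 12 replicate 1. Without replicate 2 of both days it was 5.62 (adjusted p = 0.0389).

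Lin28a (ENSMUSG00000050966), which binds RNA and blocks maturation of let-7 microRNAs, was at 1.498, 0.0759 and 0.441 CPM at day 9 and at 32.5, 14.6 and 4.36 CPM at day 12. It had the same order of day 12 libraries as Otx2, and a change of 4.56 ± 0.82 (edgeR, adjusted p = 0.0282). The change was 6.30 without day 9 replicate 1 (adjusted p = 0.0517) and 3.68 without day 12 replicate 1 (adjusted p = 0.114). Dppa5a (ENSMUSG00000060461), an RNA-binding protein restricted to early embryonic and germ cells, was at 0.843, 0.228 and 0.955 CPM at day 9 and at 6.38, 68.0 and 16.9 CPM at day 12. Here replicate 2 was highest and replicate 1 lowest, and the change was 5.54 ± 1.00 (edgeR, adjusted p = 0.0282). Without day 12 replicate 2 it was 4.14 (adjusted p = 0.194) and without replicate 2 of both days 3.71 (adjusted p = 1).

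Sall4 (ENSMUSG00000027547), a zinc finger factor of the pluripotency network, was at 1.81, 0.721 and 1.98 CPM at day 9 and at 11.9, 14.8 and 8.25 CPM at day 12. The day 12 libraries were closer together than for the preceding 3 genes. Its change was 2.98 ± 0.59 (edgeR, adjusted p = 0.0449), and it was called in none of the fits that left out 1 of the 6 libraries, with a range of 2.45 to 3.19 over its 16 alternatives.

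Dsg2 (ENSMUSG00000044393), a desmosomal cadherin, was at 2.31, 0.911 and 3.08 CPM at day 9 and at 9.27, 9.35 and 7.11 CPM at day 12. It had the smallest change of the 12, 2.06 ± 0.35 (edgeR, adjusted p = 0.0257), and a narrow spread at day 12. Dsg2 was called in 3 of the 7 fits that left out libraries. Its change was 1.73 without day 9 replicate 2 (adjusted p = 0.232) and 1.65 without replicate 2 of both days (adjusted p = 0.978). Myo5b (ENSMUSG00000025885), a motor that carries recycling vesicles to the apical membrane, was at 0.156, 0.038 and 0 CPM at day 9, or 5, 1 and 0 reads, and at 1.77, 1.13 and 1.18 CPM at day 12, or 55, 35 and 30 reads. Its change was 4.05 ± 0.78 (edgeR, adjusted p = 0.0371), resting on 6 reads at day 9. It was 5.52 without day 9 replicate 1 (adjusted p = 0.111), and Myo5b was called in 0 of the 7 fits that left out libraries. Myo5b was the exception among the 12 in the SSEA1+ fraction, where its change of 1.76 ± 0.63 did not pass (adjusted p = 0.0688).

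The remaining 6 are on none of the gene lists used here, as is Myo5b, and were named after their values were seen. Trap1a (ENSMUSG00000051257), an X-linked gene first known as a tumour antigen, was at 0.187, 0.0759 and 0.0734 CPM at day 9 and at 1.77, 10.7 and 3.03 CPM at day 12 (5.33 ± 0.94, edgeR, adjusted p = 0.0282). Fabp3 (ENSMUSG00000028773), a fatty acid binding protein, was at 0.343, 0.266 and 0.220 CPM and then at 1.96, 8.64 and 4.01 CPM (4.06 ± 0.76, adjusted p = 0.0371). In both of these genes replicate 2 was highest and replicate 1 lowest at day 12, the order seen for Dppa5a. Trap1a was 6.004 without day 9 replicate 1 (adjusted p = 0.248), 4.22 without day 12 replicate 2 (adjusted p = 0.194) and 3.96 without replicate 2 of both days (adjusted p = 1). Fabp3 was 3.35 without day 12 replicate 2 (adjusted p = 0.194) and 3.30 without replicate 2 of both days (adjusted p = 1).

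Cecr2 (ENSMUSG00000071226), a bromodomain protein of a chromatin remodelling complex, was at 0.406, 0.114 and 0.294 CPM at day 9 and at 4.96, 3.77 and 1.53 CPM at day 12 (3.62 ± 0.70). Rimklb (ENSMUSG00000040649), an enzyme that makes N-acetylaspartylglutamate, was at 0.312, 0.152 and 0.588 CPM and then at 4.96, 4.19 and 1.45 CPM (3.43 ± 0.67). For both genes replicate 3 was lowest at day 12, as for Otx2 and Lin28a. Chga (ENSMUSG00000021194), a protein of secretory granules, was at 0.125, 0.0759 and 0.220 CPM and then at 1.90, 0.903 and 1.02 CPM (3.24 ± 0.63). Dusp9 (ENSMUSG00000031383), a phosphatase that turns off MAP kinases, was at 1.15, 0.683 and 1.84 CPM and then at 6.31, 7.74 and 5.23 CPM (2.45 ± 0.47). Each of these 4 had an adjusted p of 0.0371 in edgeR's test, and none of the 4 overlapped between the days. Of the 7 fits that left out libraries, Cecr2 and Rimklb were called in 1 and Chga and Dusp9 in 0. The next gene in order of p, Triml1, had a change of 6.10 and an adjusted p of 0.0526.

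Set against the SSEA1+ fraction, the 12 genes were low in SSEA1- cells at both days. Their mean in MEFs was under 1 CPM for 10 of 12, the exceptions being Fabp3 (2.52 CPM) and Dusp9 (9.65 CPM). From day 6 to day 9 of the SSEA1- fraction, a comparison that shares the day 9 libraries, the 12 had changes of -0.41 to 3.25 (median 1.17), none of them called (adjusted p = 1 for each). No gene of the 17326 was called in that step (edgeR, 474 genes at an unadjusted p under 0.05, a smaller share than 0.05). DESeq2 was not run on that step. At both days all 12 were higher in SSEA1+ than in SSEA1- cells by the test, which shares libraries with the step. In SSEA1- cells of day 12 their mean was 4.16 to 31.1% (median 9.12%) of the SSEA1+ mean of that day, after 1.46 to 12.9% (median 3.03%) at day 9. Compared with iPS-stage SSEA1+ cells, it was 1.92 to 29.6%.

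**Figure D2:**
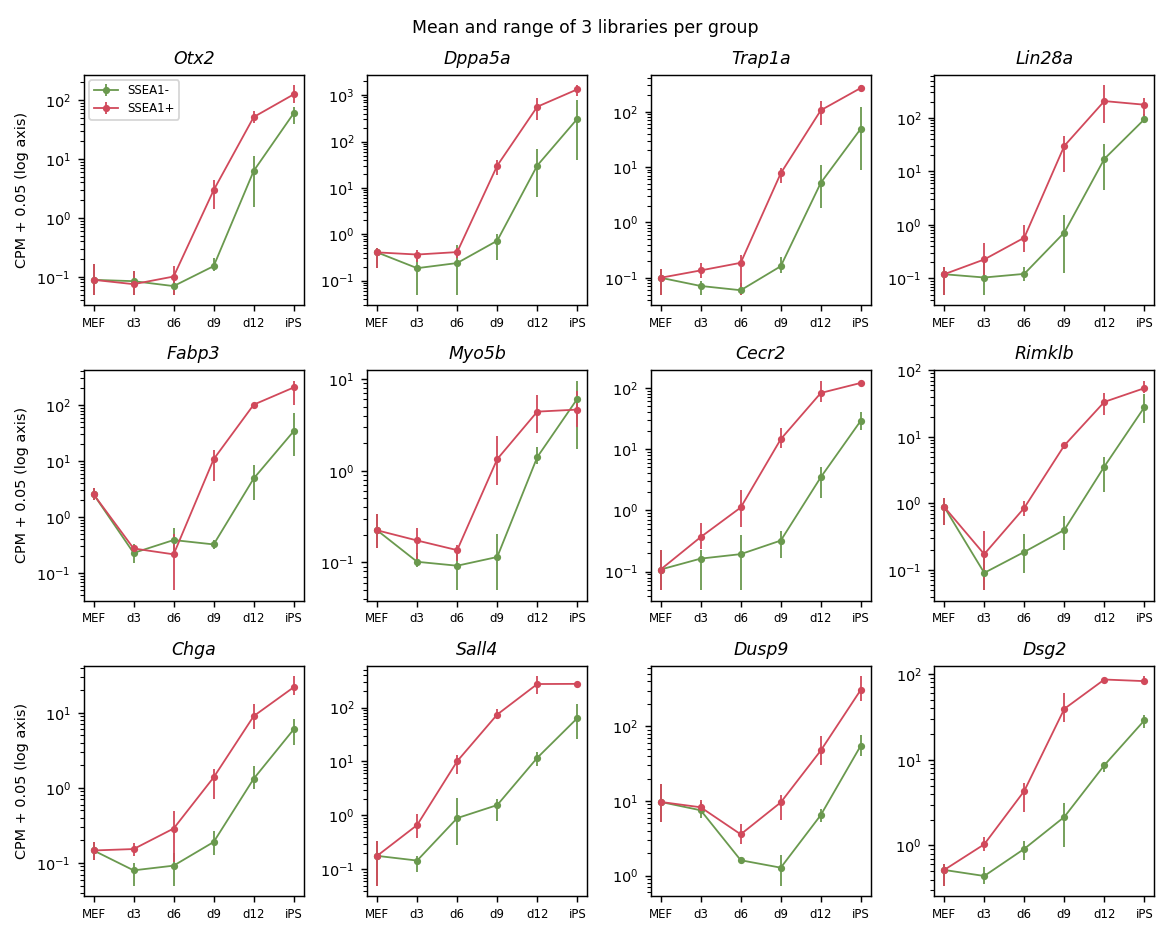
Mean CPM plus 0.05 (log axis) of the 12 genes by stage, from MEFs through days 3, 6, 9 and 12 to iPS cells, with bars for the range of 3 libraries. Green is the SSEA1- and red the SSEA1+ fraction, and the SSEA1- mean stays below the SSEA1+ mean at days 9 and 12 in all 12 panels.

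The share of the SSEA1+ level was not the same for all genes of a library. In replicate 1 of day 12 it was 0.743% for Dppa5a, 1.13% for Trap1a, 7.85% for Lin28a, 17.2% for Otx2 and 70.5% for Myo5b. In replicate 2 the same 5 genes stood at 12.5, 10.2, 11.4, 12.1 and 29.2%, and in replicate 3 at 5.70, 5.29, 5.49, 3.72 and 17.5%. Over all 12 genes the share ran from 0.743 to 70.5% in replicate 1, from 5.75 to 29.2% in replicate 2 and from 2.67 to 17.5% in replicate 3. In bulk RNA a few cells with much of a transcript cannot be told apart from many cells with little, and whether SSEA1+ cells were present in the SSEA1- sort was not tested.

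The SSEA1+ fraction over the same 3 days shares no library with the SSEA1- step, and its values can be set beside it. At day 9 same-numbered libraries of the fractions deviated together from their group means (r = 0.182, 0.285 and 0.3105 over genes). At day 12 r was 0.190, 0.176 and 0.239, and the main model takes no account of this. In SSEA1+ cells 930 genes rose (5.37%) and 598 fell (3.45%), 1528 in all (8.82%). Among the 930 were 11 of the 12 genes above, with Myo5b the exception. Otx2 changed by 4.15 ± 0.56 in SSEA1+ cells, Dppa5a by 4.23 ± 0.86, Lin28a by 2.79 ± 0.70 and Sall4 by 1.88 ± 0.53. The difference between the steps, SSEA1- minus SSEA1+, was 0.13 to 2.29 for the 12 and called for none of them (adjusted p = 0.435 to 0.988 in edgeR's interaction test). For Otx2 it was 1.62 ± 0.91, an interval too wide to show that the steps were alike.

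The interaction test over all genes called 10 (0.0577%), and in each of them the SSEA1+ step was called and the SSEA1- step was not. Cmklr1, a receptor for the chemoattractant chemerin, was at 4.74, 10.4 and 5.21 CPM in SSEA1- cells of day 9 and at 4.73, 8.35 and 6.91 CPM at day 12. In SSEA1+ cells it went from 0.456, 0.205 and 0.479 CPM to 21.5, 11.0 and 8.02 CPM. The SSEA1- libraries of the days overlap and the SSEA1+ libraries do not, with a change of -0.03 ± 0.49 against 5.14 ± 0.62 and a difference of -5.18 ± 0.78 (adjusted p = 0.008).

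Mitf, the transcription factor of the melanocyte lineage, had the same pattern, at 3.84, 5.66 and 3.23 CPM and then 2.64, 6.97 and 2.75 CPM in SSEA1- cells. In SSEA1+ cells it went from 1.95, 2.21 and 2.06 CPM to 21.5, 14.6 and 12.1 CPM (difference -3.00 ± 0.58, adjusted p = 0.0443). The others with a lower step in SSEA1- cells were Pde8a, a cAMP phosphodiesterase (difference -3.42), Kdelr3, a receptor that returns proteins to the endoplasmic reticulum (-2.10), Bclaf3 (-1.75) and the zinc finger gene Zfp229 (-1.51). These 6 were 0.0346% of the genes tested.

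In the other direction stood 4 genes (0.0231%) that fell in SSEA1+ cells and did not pass the test in SSEA1- cells. Mid1, a ubiquitin ligase bound to microtubules, was at 39.5, 46.3 and 46.6 CPM and then 33.9, 41.9 and 53.04 CPM in SSEA1- cells. In SSEA1+ cells it went from 138, 79.5 and 75.1 CPM to 11.9, 16.0 and 25.8 CPM (difference 2.41 ± 0.39, adjusted p = 0.0125). Hoxa11, a homeobox gene of limb and trunk mesenchyme, had a difference of 2.66 ± 0.47 (adjusted p = 0.0198), Zhx1 of 1.26 and Hoxa11os of 2.79. Hoxa11os is antisense to Hoxa11, and the names given to the deposited counts speak of no use of strand, so that strand does not separate reads of the pair. Reads that fit several genes are among the summary rows that were left out.

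The number of genes in the interaction test varied with the fit. With a replicate block in the 33-library model it called 8 with a higher and 8 with a lower step in SSEA1- cells, with only the 12 libraries of these days it called none in either direction, with or without a replicate block (2170 and 1844 genes at an unadjusted p under 0.05), and with the GC trend of each library removed 12 and 5. DESeq2 called 103 and 66. Leaving out replicate 3 of day 12 SSEA1+ gave 201 and 51, leaving out replicate 3 of day 9 SSEA1+ gave 20 and 6, and the other 10 libraries, left out in turn, gave 0 to 6 and 1 to 8.

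**Figure D3:**
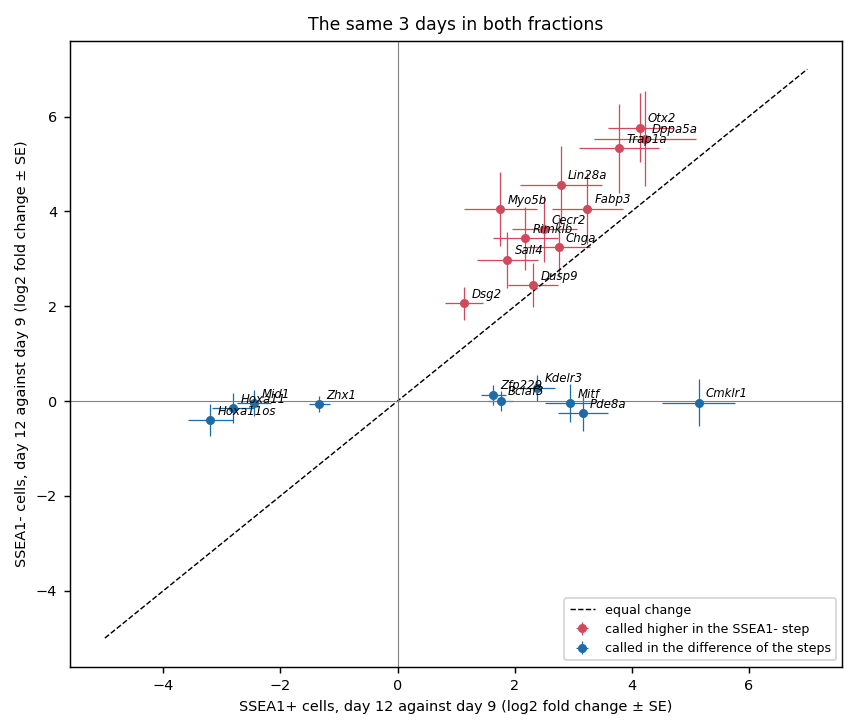
Log2 fold change of day 12 against day 9 in SSEA1+ cells (horizontal) and SSEA1- cells (vertical), with standard errors, for the 12 genes called higher in SSEA1- cells (red) and the 10 called in the difference of the steps (blue). The dashed line marks equal change: the red points lie near or above it, and the blue points lie along a SSEA1- change of 0.

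The 4 reprogramming factor genes did not pass the test. Pou5f1 was at 66.0, 36.8 and 56.7 CPM at day 9 and at 69.7, 49.6 and 75.7 CPM at day 12 (0.29 ± 0.65). Sox2 changed by 0.64 ± 0.67, Klf4 by -0.01 ± 0.36 and Myc by -0.11 ± 0.38, all with overlapping libraries. These counts do not separate introduced copies of the factors from the endogenous genes.

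Of the naive and core pluripotency list, 4 of 38 genes rose, against 0.0693% of all tested genes, and none fell. The 4 are Otx2, Lin28a, Dppa5a and Sall4. Otx2, a factor of the epiblast, is also on the primed epiblast and primitive streak list and is counted in both. Lists and members were chosen with earlier results of these data known, so their counts describe and do not test. All 38 passed the filter on low counts, which a gene can pass through any group of the series. In 16 of the 38 every day 12 library lay above every day 9 library, against 5.56% of all tested genes, and the median change was 1.69, against -0.02. Nanog, a core factor of the network, was at 6.15, 4.56 and 9.62 CPM at day 9 and at 9.24, 44.0 and 22.4 CPM at day 12, and so overlapped between the days (1.91 ± 0.77, adjusted p = 1). Esrrb, a nuclear receptor of naive cells, was at 4.74, 3.49 and 4.99 CPM and then at 8.92, 31.0 and 15.5 CPM (2.07 ± 0.74, adjusted p = 0.772). Zfp42, a marker of naive cells, was at 1.09, 0.228 and 1.18 CPM and then at 1.84, 17.0 and 3.34 CPM (3.20 ± 0.89, adjusted p = 0.314). In all 3 genes replicate 2 was the highest day 12 library and replicate 1 the lowest. Other members of the list had overlapping values: L1td1 stood at 276 to 397 CPM at day 9 and 273 to 293 CPM at day 12, and Fgf4 at 39.4 to 50.2 CPM and 35.3 to 48.3 CPM.

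In the epithelial list, Dsg2 alone of 37 genes rose and none fell. The libraries of the days were nonetheless separate, with day 12 higher, for 22 of the 37, and separate with day 12 lower for 1, the transcription factor Ehf (-0.36 ± 0.48), against 5.56% and 2.26% of all tested genes. The median change was 1.51. Cldn4, a tight junction claudin, was at 7.71, 2.43 and 11.8 CPM at day 9 and at 25.4, 35.2 and 48.3 CPM at day 12 (2.33 ± 0.53, adjusted p = 0.116). Krt8, a keratin of simple epithelia, was at 20.04, 5.81 and 15.9 CPM and then at 62.5, 57.9 and 71.1 CPM (2.20 ± 0.81, adjusted p = 0.813). Epcam, an epithelial adhesion molecule, was at 18.7, 10.2 and 36.7 CPM and then at 45.9, 65.8 and 79.7 CPM (1.55 ± 0.46, adjusted p = 0.411). None of these 3 overlapped between the days and none passed. Cdh1, the epithelial cadherin, was at 150, 17.5 and 89.2 CPM and then at 170, 107 and 87.0 CPM (0.51 ± 0.67), so that the day 9 spread covered the day 12 range except for replicate 1.

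The keratinocyte list had no called gene among 23 tested of 26, with 10 separate and higher at day 12, against 5.56% of all tested genes, and a median change of 2.20. Krt17, a keratin of stressed and appendage epithelium, was at 1.62, 0.304 and 0.881 CPM and then at 4.48, 10.7 and 25.7 CPM (3.83 ± 0.93, adjusted p = 0.214). Krt6a, a keratin of the same kind, was at 0.406, 0.038 and 0.588 CPM and then at 2.99, 10.5 and 11.2 CPM (4.64 ± 1.35, adjusted p = 0.385). Their high libraries at day 12 were replicates 2 and 3. Trp63, the factor that defines stratified epithelium, was at 2.72 to 7.06 CPM at day 9 and 3.46 to 7.93 CPM at day 12 (0.10 ± 0.72).

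Otx2, counted above in the pluripotency list as well, was the called gene of the primed epiblast and primitive streak list. Of that list 6 of 16 tested were separate and higher at day 12 (median 1.53), against 5.56% of all tested genes (median -0.02). Cer1, an antagonist of Nodal secreted by anterior endoderm, was at 0.531, 0.152 and 0.0734 CPM and then at 18.9, 6.35 and 0.786 CPM (4.95 ± 2.00, adjusted p = 1). T, the factor brachyury of the primitive streak, was at 0.406, 0.038 and 0.0734 CPM and then at 6.67, 1.87 and 0.550 CPM (3.95 ± 1.71, adjusted p = 1). Gata4, a factor of endoderm and heart, was at 0.655, 0.873 and 0.441 CPM and then at 7.37, 4.74 and 3.26 CPM (2.93 ± 0.77, adjusted p = 0.254). In these 3 genes replicate 1 was the highest day 12 library and replicate 3 the lowest. Of the endoderm list 7 of 21 tested were separate and higher (median 1.06), of the trophoblast list 6 of 16 (1.48), of the germline list 7 of 24 (0.90), of the neural list 7 of 22 (0.15) and of the skeletal and cardiac muscle list 4 of 15 (0.69), each to be read beside the same 5.56%. None of these 5 lists had a called gene. Of these lists, the smallest adjusted p belonged to 2 homeobox genes of the trophoblast list, Rhox6 (3.94 ± 0.84, adjusted p = 0.0789) and Rhox9 (4.18 ± 0.90, adjusted p = 0.0967).

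**Figure D4:**
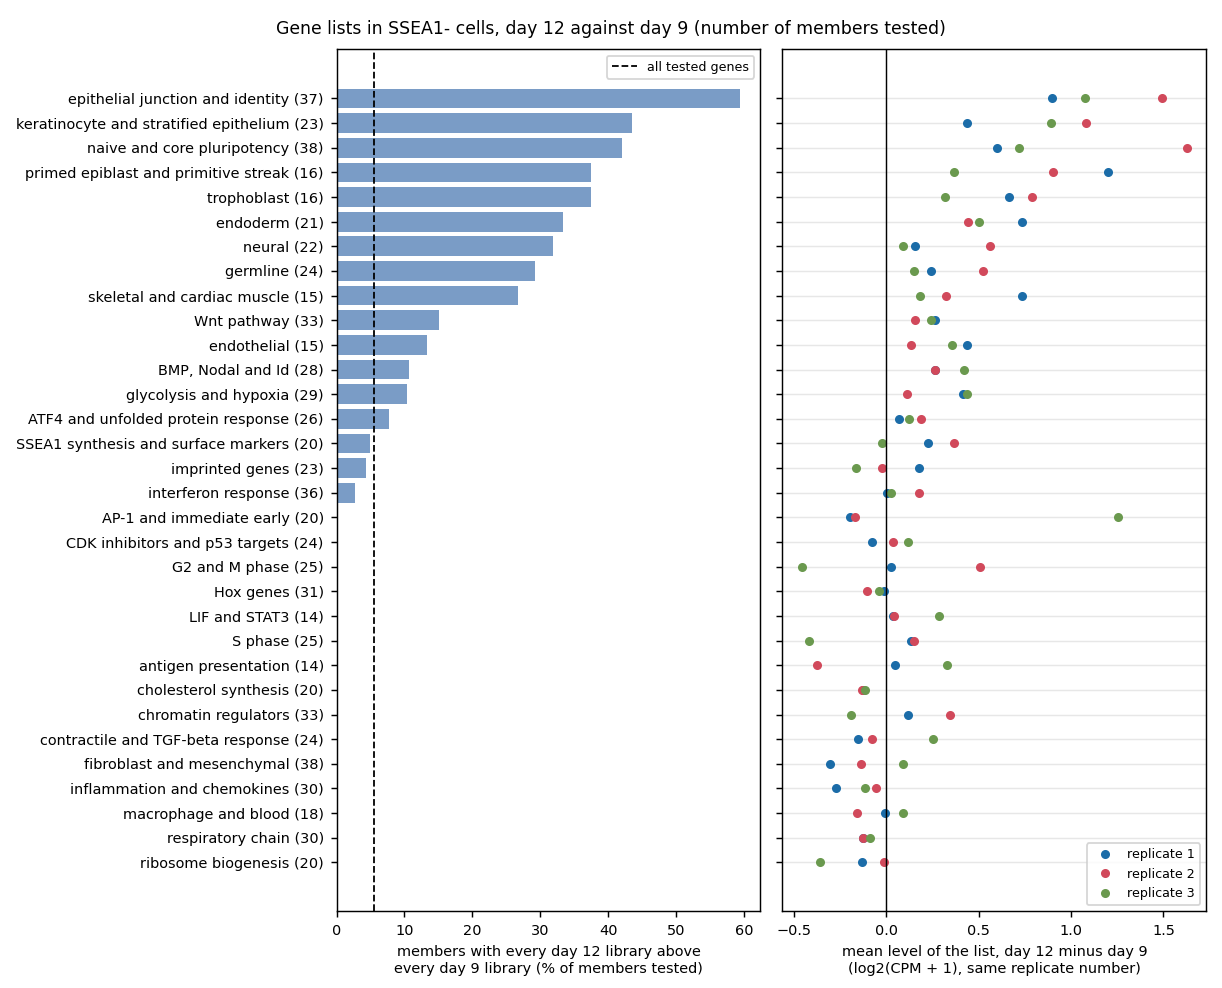
Left, the share of each list's tested members (number in brackets, lists with at least 10) whose day 12 libraries all lay above all day 9 libraries, with the 5.56% of all tested genes as a dashed line. Right, the difference of the list's mean log2(CPM + 1) between day 12 and day 9 for each replicate number: the epithelial, keratinocyte and pluripotency lists lie at 0.44 to 1.63 in all 3, while the cell cycle lists lie on both sides of 0.

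The 3 day 12 libraries differed in which of these programmes was highest. The primed epiblast and streak list had a mean log2(CPM + 1) of 2.55 in replicate 1, 2.14 in replicate 2 and 1.65 in replicate 3, against 1.24 to 1.35 at day 9. The pluripotency list stood at 2.85, 3.76 and 3.12, against 2.14 to 2.41 at day 9. For the epithelial list the values were 3.78, 3.84 and 4.14, against 2.35 to 3.07. Replicate 1 was thus highest in streak genes, replicate 2 in pluripotency genes and replicate 3 in epithelial genes, and each day 12 library was above each day 9 library in all 3 lists. In SSEA1+ cells of day 12 the streak list stood at 4.77, 3.07 and 2.84 and the epithelial list at 5.20, 5.94 and 6.10, with the same replicate highest as in SSEA1- cells. The pluripotency list stood at 7.08, 6.74 and 6.28 there, with replicate 1 highest. Over all genes, the first principal component of the 6 SSEA1- libraries (39.7% of variance) placed replicate 1 of both days at -47.8 and -50.9, replicate 2 at 69.0 and 24.5 and replicate 3 at -7.37 and 12.7. The second component (22.6%) separated the days, at -35.2 to -22.6 for day 9 and 17.2 to 40.4 for day 12.

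Lists of the fibroblast state showed no called gene. With 0.0693% of all tested genes called, 30 of the 33 lists had none. A list without a called gene is therefore not shown to be unchanged. Of 38 fibroblast and mesenchymal genes tested, 0 lay wholly above or wholly below, against 5.56% and 2.26% of all tested genes. Their median change was -0.11. Col1a1, the main fibrillar collagen chain, was at 829, 4075 and 1219 CPM at day 9 and at 549, 1943 and 2439 CPM at day 12 (-0.31 ± 0.80). Thy1, a surface antigen of fibroblasts, was at 449 to 849 CPM and then at 462 to 704 CPM (-0.11 ± 0.47). The 24 contractile and TGF-beta response genes tested had a median of -0.06, and Acta2, smooth muscle actin, was at 1460 to 2350 CPM and then at 1212 to 1716 CPM (-0.22 ± 0.49). The Hox list, which records the body position of the starting fibroblasts, had no called gene among 31 in SSEA1- cells (median -0.10), and 22 of the 31 fell in SSEA1+ cells, where 3.45% of all tested genes fell. In the test of the difference 1 of the 31, Hoxa11, was called, against 0.0577% of all tested genes.

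Proliferation, senescence and metabolism lists also had no called gene, against 0.0693% of all tested genes. The S phase list had a median of -0.11 over 25 genes and the G2 and M phase list of -0.01 over 25. None of their members lay wholly above or below, against 5.56% and 2.26% of all tested genes. Cdkn2a, the cell cycle inhibitor of senescent cells, was at 72.6 to 144 CPM at day 9 and 83.6 to 158 CPM at day 12 (0.17 ± 0.53). Cdkn1a, a p53 target that arrests the cycle, was at 379 to 728 CPM and then at 540 to 643 CPM (0.14 ± 0.44). Glycolysis and hypoxia genes had 3 of 29 wholly above, against 5.56% of all genes (median 0.18), and 17 of 29 higher in all 3 pairs of equal number, against 14.9% of all genes. All 30 respiratory chain genes and all 20 ribosome biogenesis genes had a change below 0 under TMM scaling, by a median of -0.12 and -0.18. With upper-quartile scaling the medians were -0.08 and -0.13, and 5 of the 30 and 0 of the 20 had a change above 0. The cholesterol synthesis list had 4 of 20 wholly below, against 2.26% of all genes, among them Sqle (-0.28 ± 0.25). No change in these lists reached 2-fold with an adjusted p under 0.05.

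Genes for the SSEA1 antigen itself did not pass the test. Fut9, a fucosyltransferase that completes the antigen in mouse stem cells, was at 8.40, 10.7 and 13.8 CPM at day 9 and at 9.95, 12.2 and 11.6 CPM at day 12 (0.04 ± 0.49, adjusted p = 1). Fut4, a related enzyme, was at 2.59 to 3.46 CPM and then at 2.61 to 2.83 CPM (-0.18 ± 0.44). The day 12 values of Fut9 lay within the day 9 range.

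Markers of other cell types moved as follows. The summed level of 6 simple epithelium markers was 41.8 to 219 CPM at day 9 and 314 to 384 CPM at day 12, without overlap, beside 452 to 1426 and 1279 to 1689 CPM in SSEA1+ cells. That of 6 pluripotent markers was 9.87 to 20.4 CPM and then 39.8 to 181 CPM, without overlap, beside 413 to 605 and 1531 to 2996 CPM in SSEA1+ cells. Sums for keratinocyte (111 to 459, then 208 to 390 CPM), endothelial (6.68 to 23.5, then 12.6 to 39.1 CPM), muscle (6.24 to 10.4, then 8.87 to 15.1 CPM) and neural markers (33.3 to 50.1, then 35.2 to 56.1 CPM) overlapped between the days. Most of the keratinocyte sum was Perp (98.7 to 440, then 184 to 364 CPM), which overlapped, as did Trp63 and Sfn. Krt5 (0.114 to 0.718, then 1.38 to 6.18 CPM), Krt14 (0.0759 to 0.905, then 1.69 to 2.99 CPM) and Krt15 (0 to 0.156, then 0.196 to 0.644 CPM) were higher at day 12 without overlap, and none was called. By equal replicate number, endothelial markers were higher at day 12 in all 3 pairs (23.5 to 39.1, 6.68 to 12.6 and 21.7 to 31.4 CPM), as were macrophage markers (14.1 to 18.5, 232 to 324 and 30.3 to 33.8 CPM), while the other 3 sums and the fibroblast sum were not of 1 sign. Their part in the results was not tested. Myod1, which specifies skeletal muscle, had no read in 5 of the 6 libraries. No read was counted for Myog in replicate 3 of either day or for the keratin gene Krt15 in replicate 3 of day 9. The neural marker Sox1 had no row under that symbol in the counts, so the neural sum holds 4 markers. All other defining markers were detected in each library. Lyz2, the macrophage lysozyme, was at 143 CPM in replicate 2 of day 9 and 247 CPM in replicate 2 of day 12 and at 2.06 to 17.4 CPM elsewhere. Without replicate 2, 26 of 37 epithelial genes, 19 of 38 pluripotency genes and 9 of 16 streak genes were wholly above, against 15.3% of all tested genes. The part of macrophage RNA in the results was not tested.

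**Figure D5:**
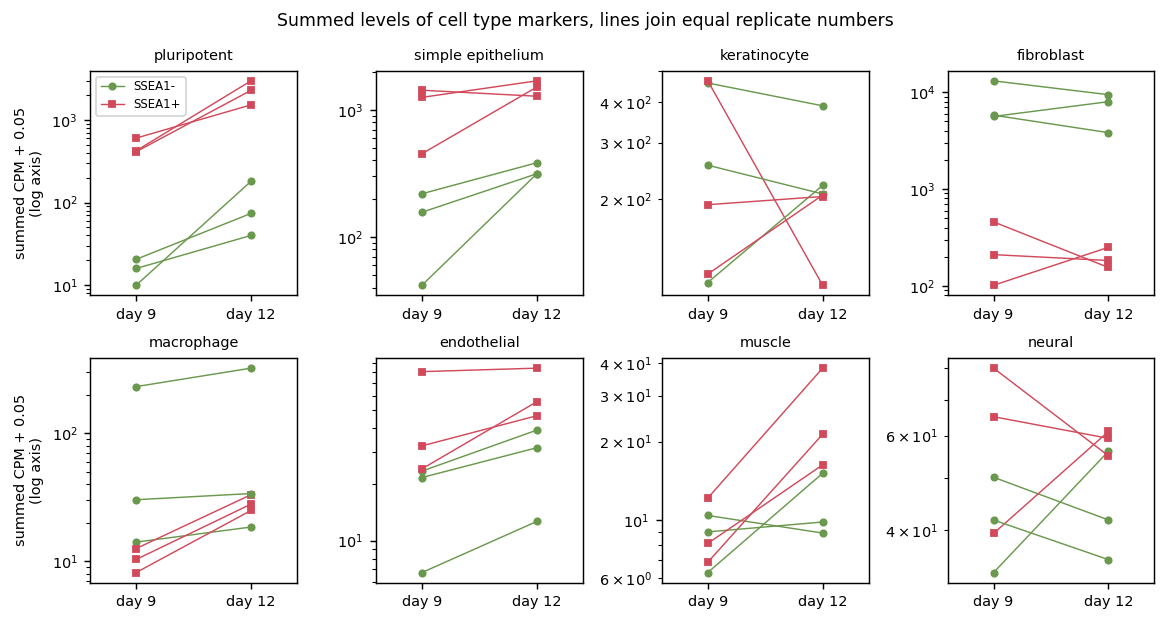
Summed CPM plus 0.05 (log axis) of the defining markers of 8 cell types at day 9 and day 12, with green circles for SSEA1- and red squares for SSEA1+ libraries and lines joining equal replicate numbers. Pluripotent and simple epithelium markers are higher at day 12 in all 3 green lines, fibroblast markers lie at 3815 CPM or more in green, and 1 green line stands apart in macrophage markers.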

How the data were processed

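The values are raw counts of reads in each Ensembl gene, which the authors deposited in a separate file for each library (mouse, 33 libraries, poly-A RNA, a kit that marks strand per the labels' protocols). The submitters' processing notes list the build mm9 and the tools HTSeq 0.6.0, STAR 2.3.0 and Picard 1.100 with no roles. For the annotation, the release is not stated there. Of 37583 gene IDs, 32860 had a symbol in the reference annotation of another build, which gave names, GC content and length only. Summary rows without a gene were left out of library sizes and of every test. The share of unique reads in no gene was 10.02 to 15.5% in these 6 libraries, and that of reads with several alignments 20.8 to 26.2% of all reads. The floor of 3 reads is 0.102 to 0.238 CPM and, as the labels mention no molecular identifiers, takes in counting error alone.

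Tests were edgeR 4.0.16 quasi-likelihood fits (robust, TMM, filterByExpr) in R 4.3.3, with 33 libraries in 1 model of 11 group means and 22 residual degrees of freedom. The script was tested on simulated data. Standard errors are the change divided by the root of F. DESeq2 1.42.0 was an alternative, with others for scaling, filter, GC content, libraries and pairing. Same-numbered libraries of day 9 and day 12 deviated together from their group means (r = 0.652, 0.418 and 0.257 over genes, each above 0.1), so the numbers were taken to pair them, from the data alone. The main model nonetheless holds no replicate block, so its p-values, standard errors and calls do not use the pairing. Fits with the block are given as alternatives. Chi-square values of 46.9 to 151 per degree of freedom between libraries of a group were far above sampling noise, so none was a repeat of another.

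Genes were named if called with no overlap and a mean in the higher group of 10 CPM or more, if among up to 4 called members of each list, or if in a fixed set. The other called genes and list members that were not called were named after their values were seen. Members, 33 gene lists and cell type markers were chosen with earlier results of these data known. The alternative without replicate 2 of both days was chosen after seeing the data.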

Additional observations from a re-analysis of the deposited data

Results flagged for a closer look

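The change from day 9 to day 12 differed between the SSEA1- and SSEA1+ fractions in 10 genes by edgeR's interaction test, and this is what set them apart. The difference, SSEA1- minus SSEA1+ on the log2 scale, was -5.18 for Cmklr1, -3.42 for Pde8a, -3.00 for Mitf, -2.10 for Kdelr3, -1.75 for Bclaf3 and -1.51 for Zfp229. It was 2.79 for Hoxa11os, 2.66 for Hoxa11, 2.41 for Mid1 and 1.26 for Zhx1. The SSEA1- change of these 10 ran from -0.40 (Hoxa11os) to 0.28 (Kdelr3). Of 22 alternatives, Cmklr1 was called in 20, Mid1 in 16, Pde8a in 14, Bclaf3 and Hoxa11os in 12, Hoxa11 in 11, Kdelr3 and Mitf in 9, Zfp229 in 8 and Zhx1 in 5.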

How the results depend on the processing

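The number of genes called higher at day 12 in SSEA1- cells was 12. It was 62 with DESeq2, 2 without a filter on low counts, 6 with the GC trend removed (which moved the median of all genes from -0.02 to -0.12), and 0 with only these 6 libraries, with or without the replicate block. It was 13, 15 and 14 with RLE factors, upper-quartile factors and a filter of 10 CPM, and 17 with the replicate block in the 33-library model. Leaving out 1 library gave 1 to 9, and replicate 2 of both days 1. No alternative called a gene lower. For the interaction test the counts of genes with a higher and a lower step in SSEA1- cells were 4 and 6. They were 103 and 66 with DESeq2, 0 and 0 with 12 libraries with or without the replicate block, and 8 and 8 with the replicate block in 33 libraries. With the GC trend removed they were 12 and 5, without a filter 3 and 3. Leaving out 1 library gave 0 to 201 and 1 to 51, and replicate 2 of both days 2 and 5. The cause of these moves was not tested. The 12 genes kept a positive change and the 10 genes of the interaction test their sign in all alternatives that tested them.

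Signs turned for genes near 0 that were not called. Klf4 was 0.0067 with 6 libraries, 0.012 with DESeq2, 0.012 with RLE, 0.034 with upper-quartile factors, 0.056 without a filter and 0.016 with 10 CPM. With the GC trend removed Cdkn2a was -0.041 and Cdkn1a -0.062. On leaving out 1 library at a time the values ranged over -0.30 to 0.16 for Klf4, -0.55 to 0.14 for Myc, -0.29 to 0.23 for Thy1, -0.71 to 0.73 for Col1a1, -0.12 to 0.24 for Fut9, -0.028 to 0.42 for Cdkn1a, -0.21 to 0.37 for Trp63, -0.34 to 0.066 for Acta2, -0.44 to 1.53 for Sox2 and -0.19 to 0.60 for Cdkn2a. Without replicate 2 of both days Klf4 was 0.26, Myc 0.25, Thy1 0.044, Col1a1 0.57 and Cdkn1a -0.029. Depth limits the rare genes: at day 9 the 12 genes had 6 to 140 reads summed over 3 libraries.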
